A study of Rattus norvegicus with 48 samples.

Results

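Amy1, Cyp2j4, Mtarc1, Gvinp1, Tekt1, Sbk2, Tmem100, Slc51a and Ranbp3l are 9 genes whose mRNA level in rat muscle at rest differed widely between the HCR and LCR lines, and which belong to neither the contractile nor the metabolic gene groups usually examined in muscle. They were chosen by their measured HCR minus LCR difference on the arrays at rest, from the 14557 genes that have a probe set of their own on the array. All 9 were among the 9558 genes that passed a filter on dim values and were tested. The muscle was the extensor digitorum longus, which is fast and lies along the shin, and its RNA was read on 48 Affymetrix Rat Gene ST arrays, 6 in each of 8 groups: old HCR exhausted, old LCR exhausted, young HCR exhausted, young LCR exhausted, old HCR at rest, old LCR at rest, young HCR at rest and young LCR at rest. The abbreviations HCR and LCR commonly stand for rats selected over generations as high-capacity and low-capacity runners, exhausted rats had run to exhaustion, and no group carries an engineered allele or a drug according to the labels. Ages in months, sex and the time between the run and sampling are not given in the labels. Titles carry animal numbers, so that the arrays of a group stand for different rats, except that young HCR rest replicate 6 names 2 animals.

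The products of these genes are best known outside muscle fibres. Amylases digest starch and glycogen, CYP2J enzymes turn arachidonic acid into epoxides that act on blood vessels, mARC proteins reduce N-hydroxylated compounds at the outer mitochondrial membrane, and the organic solute transporter exports bile acids and steroids from gut and liver cells. Tektins are filament proteins of cilia and flagella. TMEM100 and RANBP3L have both been placed in bone morphogenetic protein (BMP) signalling in mouse. The transmembrane protein was placed downstream of the endothelial receptor ALK1, and the Ran-binding protein in the nuclear export of SMAD proteins. The kinase SBK2 is known from atrial heart muscle in mouse.

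Values are log2 intensities, so that a difference of 1 is a doubling, and levels of different genes cannot be set against each other. The level 4.54, the median of all values, served as the filter: a gene was tested if it lay above it in at least 6 arrays. Cyp2j4, Sbk2 and Tmem100 lay above it in 24 of 24 HCR and 24 of 24 LCR arrays, and Ranbp3l in 23 HCR and 24 LCR arrays. Mtarc1 did so in 15 HCR and 24 LCR arrays and Gvinp1 in 21 HCR and 18 LCR arrays. Amy1 passed mostly through 20 HCR arrays, with 2 of LCR, Tekt1 through 15 LCR arrays, with 0 of HCR, and Slc51a through 6 HCR and 15 LCR arrays. In their low line Amy1 and Tekt1 therefore sat mostly below the median of all values, where folds are poorly determined.

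Muscle markers bore out the tissue: Acta1, Ckm, Tnnt3, Tnnc2, Actn3 and Myh4 lay between 12.8 and 13.5 on every array. 3 arrays stood apart: the first replicate of old HCR exhausted had a limma quality weight of 0.360, the first of young HCR exhausted 0.402 and the second of old LCR at rest 0.323. Liver transcripts such as Alb and Apob varied between arrays. The mean of the 13 measured of 18 listed had group means between 4.03 and 4.34 in the 4 exhausted groups, against 4.73 to 5.13 in the 4 groups at rest, and a highest value of 8.22 in a young HCR rest array.

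RefSeq's promoter table for build GRCr8 held 7 of the 9 genes, all but Gvinp1 and Tmem100. The 250 bases before the first start that the table lists are shown for Cyp2j4 and Mtarc1, which passed between lines at both ages, and for Tekt1, as a gene of cilia. RefSeq's gene records for Cyp2j4 and Mtarc1 reach further out than these starts, so that 177 and 155 bases of their windows lie inside the record, while 0 of Tekt1's do. Capitals mark E-boxes (CANNTG) in the first pair and in Tekt1 1 arm of the X-box (GTTGCC), the element bound by RFX factors of ciliated cells. The windows are chr5:116323043-116323292, chr13:98894054-98894303 and chr10:57479122-57479371, each on the minus strand and printed 5′ to 3′ on the gene's strand.
Cyp2j4: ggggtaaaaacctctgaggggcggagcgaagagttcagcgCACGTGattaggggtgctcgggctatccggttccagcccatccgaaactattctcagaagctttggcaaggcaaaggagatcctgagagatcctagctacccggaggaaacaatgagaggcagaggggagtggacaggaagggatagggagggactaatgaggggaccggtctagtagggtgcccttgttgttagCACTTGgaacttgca
Mtarc1: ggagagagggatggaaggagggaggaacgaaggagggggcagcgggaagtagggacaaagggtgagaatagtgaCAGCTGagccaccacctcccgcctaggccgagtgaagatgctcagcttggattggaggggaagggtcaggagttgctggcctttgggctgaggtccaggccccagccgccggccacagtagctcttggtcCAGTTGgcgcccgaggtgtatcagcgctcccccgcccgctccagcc
Tekt1: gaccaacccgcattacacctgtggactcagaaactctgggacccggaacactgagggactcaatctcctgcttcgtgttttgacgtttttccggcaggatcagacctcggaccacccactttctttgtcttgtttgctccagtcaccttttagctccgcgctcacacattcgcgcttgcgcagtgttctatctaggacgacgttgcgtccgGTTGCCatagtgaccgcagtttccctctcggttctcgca

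Searched on both strands, the E-box letters stood in 5 of the 7 windows (Cyp2j4, Mtarc1, Tekt1, Sbk2 and Slc51a), against 65.2% of 27457 promoters, so that these windows do not stand out by it. In Cyp2j4 they begin at -210 and -15 from the table's start and in Mtarc1 at -176 and -46. The GTTGCC arm occurred in Tekt1 alone of the 7, at -39, and in 9.9% of all promoters. A BMP response element (GGCGCC) occurred in Mtarc1, where it overlaps the second E-box, and in 9.2% of all promoters. The gamma-activated site (TTCNNNGAA) occurred in Cyp2j4 and Ranbp3l, against 7.5%, and a TATA box (TATAAA) in Amy1, against 13.1%. Such matches describe the letters and show neither binding nor a cause.

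At rest, in the arrays that chose the genes, HCR values exceeded LCR values for Amy1, Cyp2j4, Sbk2 and Gvinp1 and lay below them for Mtarc1, Tmem100, Slc51a, Ranbp3l and Tekt1. These differences are given without a test. By size among the 9558 genes Mtarc1 (-1.77 on the log2 scale) was the 2nd, Amy1 (1.69) the 4th and Tmem100 (-1.49) the 5th. Slc51a (-1.21), Cyp2j4 (1.20) and Ranbp3l (-1.20) took places 14, 15 and 16, and Sbk2 (0.94), Tekt1 (-0.92) and Gvinp1 (0.76) places 36, 39 and 64. These are averages over ages. Tekt1 was at -1.655 in young and -0.182 in old rats, Gvinp1 at 1.128 and 0.388, and Slc51a at -0.431 and -1.984. Among the other members the smallest difference at either age was 0.877, for Sbk2 in young rats.

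The genes were chosen by arrays at rest, but with earlier results of these data known. Exhausted rats are other animals than those at rest, and gave a test of the line difference in arrays that the rule of choice did not use. In their muscle 6 of the 8 genes other than Tekt1 differed between HCR and LCR: Amy1, Cyp2j4 and Sbk2 were higher in HCR, and Mtarc1, Tmem100 and Ranbp3l were lower. Gvinp1 and Slc51a did not pass. Tekt1 passed the filter through LCR arrays alone, so that it is left out of counts between lines and described on its own. Only 2 LCR arrays of Amy1 lay above the filter level, fewer than the 6 that the filter needs. Amy1 is therefore counted by the fit without a filter, where its limma adjusted p was 0.00211. Of all 9558 genes 12.1% passed in this comparison (limma, Benjamini-Hochberg adjusted p below 0.05, 12 against 12 arrays), 9.18% higher and 2.93% lower. The split of all calls depended on the scaling of the arrays: 877 were higher and 280 lower, against 564 and 591 after a further quantile normalization and 654 and 379 after median centring. Direction was the same under these scalings for each of the 6 genes, but Sbk2 then missed the threshold. With the 3 arrays that stand apart left out, 6 of the 8 passed, 3 of them higher and 3 lower in HCR. Here Amy1 is counted by the filtered fit. In whole muscle, fewer cells of a type and less RNA per cell cannot be told apart.

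**Figure D1:**
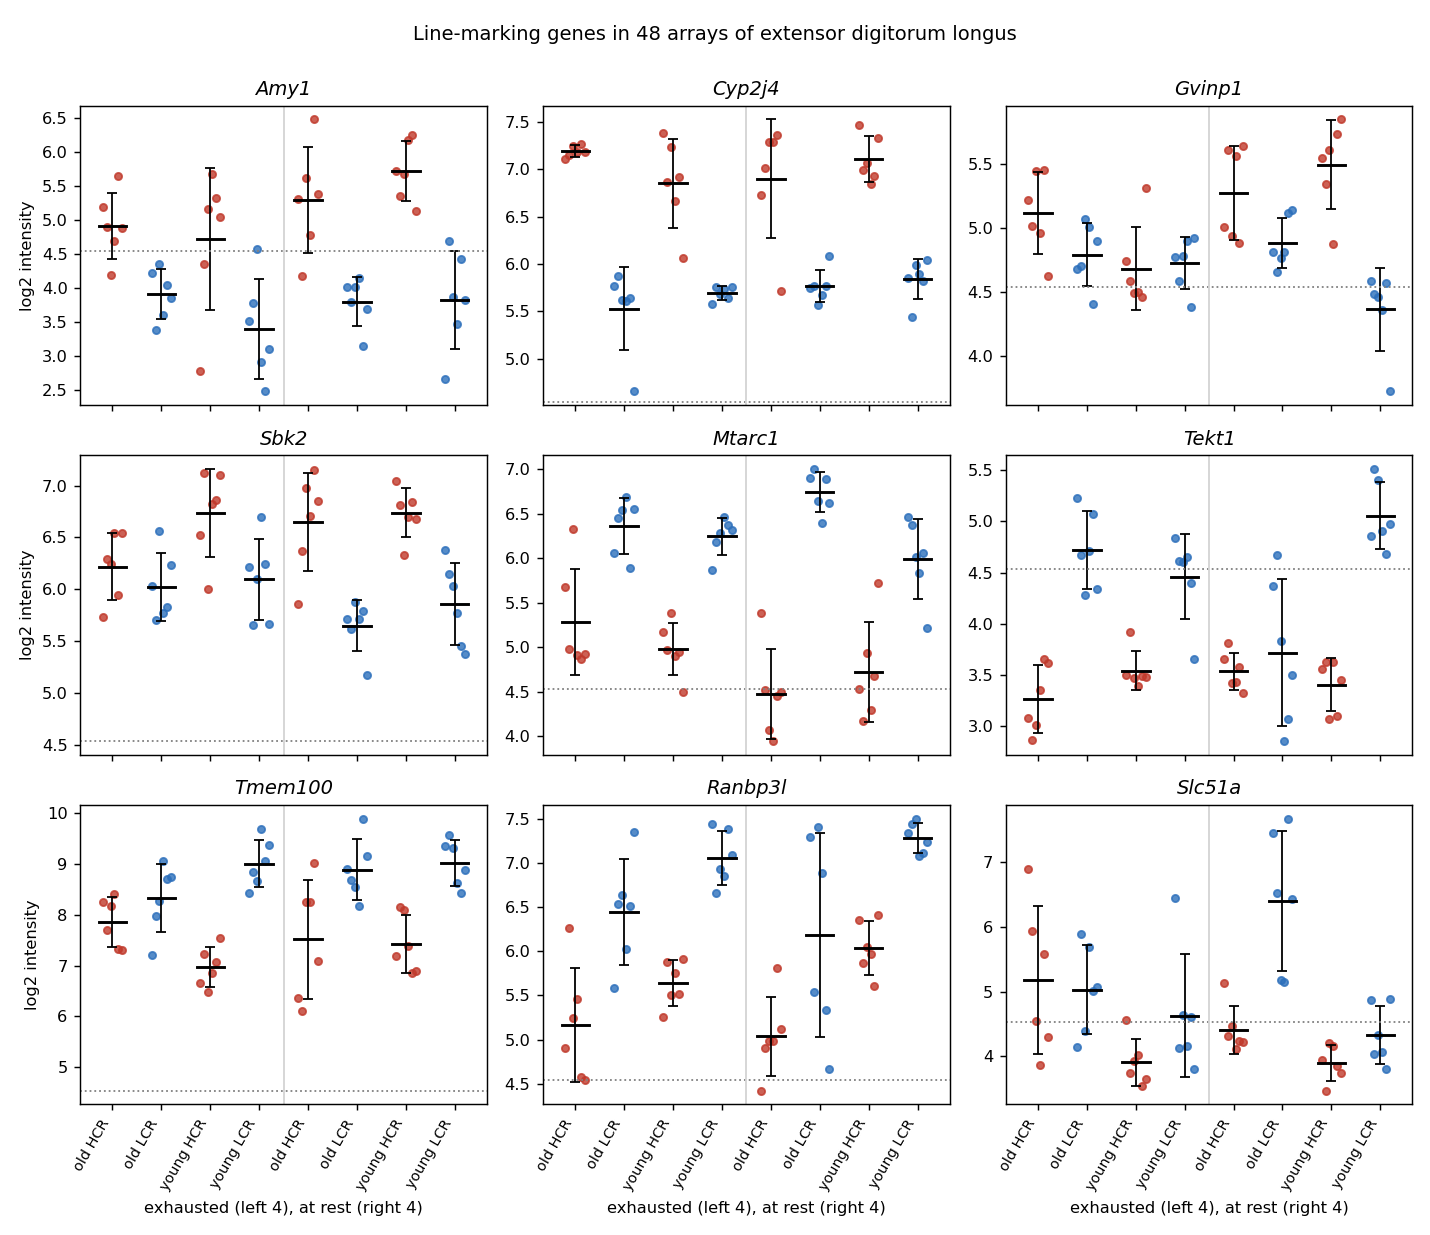
Log2 intensity of the 9 genes (vertical axes) in each of the 48 arrays, by group along the horizontal axis, with the 4 exhausted groups on the left and the 4 groups at rest on the right; red points are HCR and blue points LCR arrays, black bars are the group mean and whiskers its SD (n = 6), and the dotted line is the filter level of 4.54. Cyp2j4 is the gene whose 12 exhausted HCR arrays all lie above the 12 exhausted LCR arrays, from 6.06 upwards against 5.87 at most.

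Cyp2j4, an arachidonic acid epoxygenase, separated the lines without overlap. In exhausted rats its log2 intensity ran from 6.06 to 7.39 in HCR (median 7.17), against 4.65 to 5.87 in LCR (median 5.66). The ranges did not meet, which held for 46 of the 9558 genes (0.481%). The difference was 1.41 ± 0.14 (SE; 2.66-fold, adjusted p = 2.06e-10, 12 of 12 HCR arrays above the LCR mean). By age, means were 7.19 ± 0.06 in old HCR against 5.53 ± 0.44 in old LCR, and 6.85 ± 0.47 in young HCR against 5.69 ± 0.08 in young LCR (SD, n = 6 each). Both passed, at 1.66 ± 0.19 in old rats (adjusted p = 7.79e-08) and 1.16 ± 0.19 in young rats (6.48e-05). At rest 11 of 12 HCR arrays lay above all LCR arrays, and the one that did not, at 5.72, was an old HCR rat.

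Its pathway gave no further call. Of 13 listed epoxygenases, omega-hydroxylases and epoxide hydrolases 9 were on the array and 5 were tested, and 0 of the 5 passed between lines, with a median change of 0.20 against 0.03 for all genes. The close relatives Cyp2j3 and Cyp2j10 were not analysed here, since no probe set is theirs alone. Part of the signal of such relatives could reach the Cyp2j4 probes; this was not tested.

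Amy1, a salivary-type amylase, was also higher in HCR. Exhausted HCR arrays ran from 2.78 to 5.67 (median 4.97), against 2.48 to 4.57 (median 3.69) in exhausted LCR arrays. Most HCR arrays were higher, 9 of 12 lying above all LCR arrays, and the other 3 reached into the LCR range, the lowest of them a young rat at 2.78. The difference was 1.17 ± 0.26, with 11 of 12 HCR arrays above the LCR mean. It was 1.33 ± 0.36 in young rats and 1.003 ± 0.364 in old rats. Amy1 had passed the filter mostly through HCR arrays, so the fit without a filter is used here. Its limma adjusted p was 0.00211 over both ages, 0.0317 in young rats and 0.159 in old rats. No fold is given, since LCR arrays lay mostly below the median of all values. In the filtered fit the call in young rats was lost without any 1 of 3 young exhausted arrays (HCR replicates 4 and 5, LCR replicate 5, limma adjusted p up to 0.073).

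Markers of the glands that make amylase were mostly low. The mean of 11 measured of 16 listed pancreatic acinar genes lay between 3.93 and 4.07 in all 8 groups. The trypsinogen Prss1 reached at most 4.11 and the elastase Cela3b 4.44, while Cpa1 and Cela2a lay above 4.54 in 47 and 46 of 48 arrays. None of the 5 tested acinar genes passed between lines. Salivary gland genes (6 measured of 10) averaged 3.16 to 3.38, and Bpifa2 reached at most 4.13. The level of liver transcripts in exhausted rats averaged 4.33 in old HCR against 4.03 in old LCR, and 4.31 in young HCR against 4.34 in young LCR. With the liver mean in the model no member's call between lines over both ages was lost. The pancreatic amylase Amy2a3 was not analysed here, as it has no probe set of its own. Of 15 genes of starch and glycogen breakdown listed, 4 were tested and 0 passed between lines.

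Sbk2, a kinase known from atrial heart muscle in mouse, gave the smallest difference that passed. Exhausted HCR arrays ran from 5.74 to 7.12 (median 6.53), against 5.65 to 6.69 (median 6.07) in LCR. The ranges overlapped widely: 4 of 12 HCR arrays lay above all LCR arrays. The difference was 0.42 ± 0.14 (1.34-fold, adjusted p = 0.0464, 9 of 12 HCR arrays above the LCR mean), and it missed the threshold without any 1 of 19 of the 48 arrays (adjusted p up to 0.0899). It was 0.19 ± 0.20 in old rats (adjusted p = 0.693) and 0.64 ± 0.20 in young rats (0.0523).

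Its relative Sbk1 was higher in HCR too, at 6.06 against 5.69 in LCR (0.37 ± 0.10, adjusted p = 0.00871), while Sbk3 stood at 4.56 against 4.30 (0.26 ± 0.14, adjusted p = 0.232). Among 8 tested genes of the SBK and atrial list 2 were higher and 0 lower, Sbk1 and the potassium channel Kcna5 (0.72 ± 0.13, adjusted p = 9.22e-05), with a median of 0.25 against 0.03 for all genes. Slow fibre markers were measured on the same arrays. Their mean (6 measured of 9, Myh7, Myl3 and Atp2a2 among them) was 9.46 in old HCR against 8.98 in old LCR, and 9.73 in young HCR against 9.41 in young LCR after the run, and 0 of the 6 passed between lines. Over the deviations of the 48 arrays from their group means, Sbk2 and this slow fibre mean had r = 0.475 and rho = 0.524 (r = 0.388 without the 2 arrays farthest from the median), a pairing looked at after the data were seen and given without a test. The part of fibre type in the Sbk2 difference was not tested.

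Gvinp1, a very large GTPase of the interferon-inducible kind, did not pass after the run. Exhausted HCR arrays ran from 4.46 to 5.45 (median 4.85), against 4.38 to 5.07 (median 4.78) in LCR. The groups lay over each other. The difference was 0.14 ± 0.12 (adjusted p = 0.489, 95% interval -0.10 to 0.38). In young HCR the mean was 4.68 ± 0.32 after the run against 5.49 ± 0.35 at rest, and in young LCR 4.72 ± 0.21 against 4.36 ± 0.33. Of 18 tested interferon-inducible genes 0 passed between lines in exhausted rats, with a median of -0.12.

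Mtarc1, a molybdenum enzyme of mitochondria, was lower in HCR. Exhausted HCR arrays ran from 4.51 to 6.33 (median 4.96), against 5.87 to 6.69 (median 6.35) in LCR. Of the 12 HCR arrays 11 lay below every LCR array, the exception being an old rat at 6.33. The difference was -1.18 ± 0.17 (2.26-fold lower, adjusted p = 8.69e-07). It passed in old rats (-1.08 ± 0.23, adjusted p = 0.0025) and in young rats (-1.27 ± 0.23, adjusted p = 0.00027), and the young arrays did not overlap. Of 11 tested genes of the mARC system and of molybdenum cofactor synthesis 1 passed, the molybdenum enzyme Xdh, higher in HCR at 8.14 against 7.77 (0.38 ± 0.10, adjusted p = 0.00631). The sister gene Mtarc2 was not analysed here.

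Tekt1, a tektin, lay below the median of all values in every HCR array and around it in LCR. After the run its values were between 2.86 and 3.92 in HCR (median 3.47), against 3.66 to 5.23 (median 4.63) in LCR. Only 1 HCR array, a young rat at 3.92, reached into the LCR range. The difference was -1.19 ± 0.15, with 12 of 12 HCR arrays below the LCR mean, -1.46 ± 0.22 in old rats and -0.92 ± 0.22 in young rats. A gene with such levels passes the filter only because LCR is high, so the filtered test is not given. In the fit without a filter, over all 14557 genes, the limma adjusted p was 2.22e-07 over both ages, 1.58e-05 in old rats and 0.00845 in young rats. No fold is given, since every HCR array lies below the median of all values.

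Its relatives Tekt2, Tekt3 and Tekt4 stayed below 4.54 in all 48 arrays, with maxima of 4.31, 4.17 and 3.94, and of 15 measured genes of tektins, axoneme and ciliogenesis 4 were tested and 0 passed between lines. Multiciliated cell markers (5 measured of 9) averaged 3.48 to 3.61 in all groups, and Dynlrb2 and Cfap126 reached at most 3.71 and 4.13, while Mcidas lay above 4.54 in 39 arrays.

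Tmem100 was lower in HCR, most clearly in young rats. Exhausted HCR arrays ran from 6.48 to 8.41 (median 7.32), against 7.20 to 9.68 (median 8.72) in LCR. All 12 HCR arrays lay below the LCR mean, and 4 below every LCR array. The difference was -1.25 ± 0.25 (2.38-fold lower, adjusted p = 0.000415). Young rats had means of 6.97 ± 0.39 in HCR against 9.01 ± 0.46 in LCR, and their arrays did not overlap (-2.04 ± 0.36, 4.10-fold lower, adjusted p = 0.000133). Old rats had 7.86 ± 0.49 in HCR against 8.33 ± 0.67 in LCR, which did not pass (-0.47 ± 0.36, adjusted p = 0.562). The test of that contrast between ages gave 1.57 ± 0.50 with an unadjusted p of 0.00316, and an adjusted p of 0.899 by limma.

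Endothelial genes, among which Tmem100 is usually counted, passed in both directions. Of 9 measured endothelial markers 4 were higher in HCR, with Cldn5 at 0.996 ± 0.140 and Esam at 0.75 ± 0.10, and 2 were lower, Tek at -0.48 ± 0.07 and Vwf; Cdh5 and Flt1 were the other two that were higher. Their mean was 7.66 in old HCR against 7.49 in old LCR, and 7.61 in young HCR against 7.41 in young LCR. Within the BMP9 and ALK1 list 2 of 8 tested genes passed, both higher in HCR: the target gene Id1 (0.61 ± 0.12, adjusted p = 0.000394) and Acvrl1, which encodes ALK1 (0.26 ± 0.08, adjusted p = 0.0166).

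Ranbp3l was lower in HCR. Exhausted HCR arrays ran from 4.54 to 6.26 (median 5.48), against 5.58 to 7.43 (median 6.76) in LCR. All 12 HCR arrays lay below the LCR mean and 8 below every LCR array. The difference was -1.35 ± 0.22 (2.55-fold lower, adjusted p = 2.2e-05). Young rats, whose arrays did not overlap, gave -1.42 ± 0.32 (adjusted p = 0.00307) and old rats -1.28 ± 0.32 (0.0105). The call in old rats was lost when only the groups compared were fitted (adjusted p = 0.0507). Ranbp3, the better known SMAD and Ran binding relative, had 7.34 in HCR against 7.21 in LCR (0.13 ± 0.06, adjusted p = 0.16), and 0 of 10 tested genes of the Ran transport system passed.

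Slc51a, the alpha subunit of the organic solute transporter, did not differ beyond its spread in exhausted rats. HCR arrays ran from 3.55 to 6.89 (median 4.16), against 3.80 to 6.45 (median 4.62) in LCR. The difference was -0.29 ± 0.29 (adjusted p = 0.593, 95% interval -0.87 to 0.30). It was 0.15 ± 0.41 in old rats and -0.72 ± 0.41 in young rats, and neither passed. Without the 3 arrays that stand apart, of which old HCR exhausted replicate 1 holds the HCR maximum, it was -0.52 ± 0.29 (adjusted p = 0.248). The beta subunit Slc51b stayed below 4.54 in all 48 arrays (highest value 3.997). Of 6 tested genes of bile acid and steroid transport 1 passed between lines, the exporter Abcc4 (0.18 ± 0.06, adjusted p = 0.0494).

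**Figure D2:**
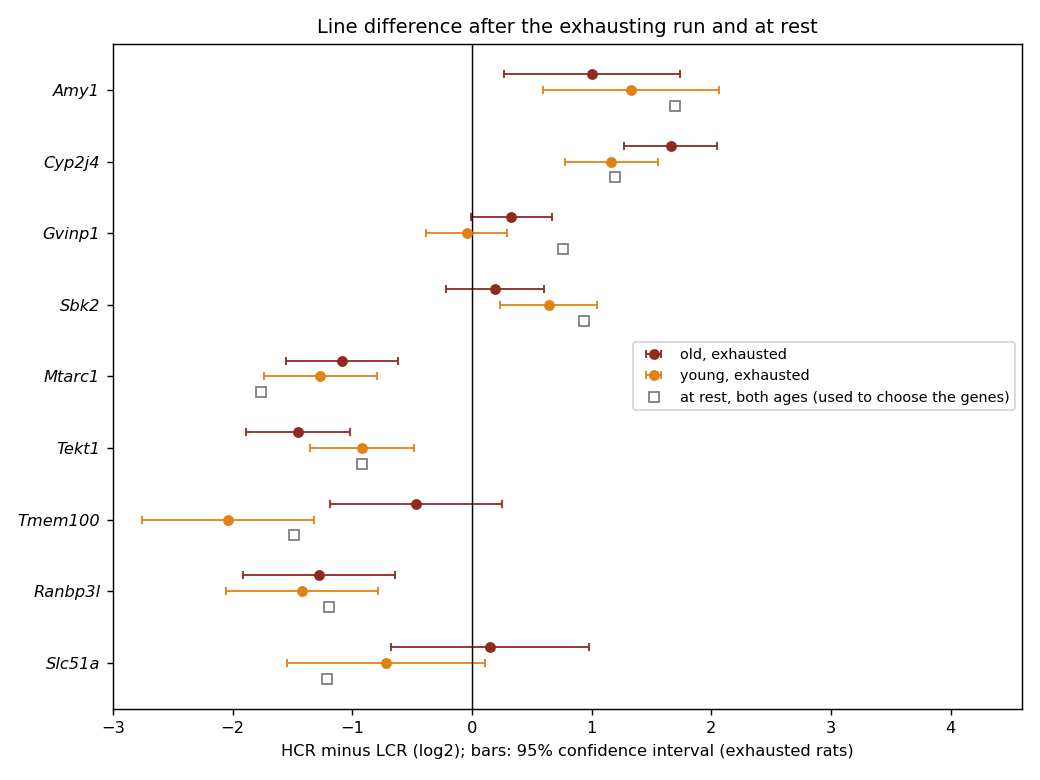
HCR minus LCR difference of the 9 genes on the log2 scale (horizontal axis) in old exhausted (dark red) and young exhausted rats (orange), with 95% confidence intervals, and in rested rats of both ages (open squares without interval, the values that chose the genes); the vertical line marks no difference. Intervals of Gvinp1 and Slc51a cross 0 at both ages after the run, and Tmem100 lies at -2.04 in young and -0.47 in old rats.

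Split by age, 5 of the 8 genes other than Tekt1 passed between lines in young exhausted rats (5.07% of all genes) and 3 in old exhausted rats (4.03%). Cyp2j4, Mtarc1 and Ranbp3l passed at both ages, and Amy1 and Tmem100 in young rats alone. Amy1 is counted by the fit without a filter. When only the groups compared were fitted, Amy1 instead passed in old rats (limma adjusted p = 0.0301) and not in young rats (0.132). Passing at 1 age does not show that the ages differ. In the test of that difference by limma 0 of 9 members and 0 of 9558 genes passed (0%), while 472 genes, Tmem100 the 1 member among them, had an unadjusted p below 0.05. Arrays of the lines did not overlap in young rats for Cyp2j4, Mtarc1, Tmem100 and Ranbp3l (3.26% of all genes), and in old rats for Cyp2j4 (2.29%), Tekt1 again left aside.

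Exhaustive running, averaged over both lines, which leaves out the contrast that chose the genes, moved 0 of the 9 past the threshold over both ages (limma, 16.1% of all genes). At an unadjusted p below 0.05 there were 2, Amy1 and Gvinp1. Amy1 ran from 2.48 to 5.67 in the 24 exhausted arrays (median 4.28), against 2.66 to 6.48 in the 24 at rest (median 4.55). Its change was -0.42 ± 0.18 (adjusted p = 0.105), with 18 of 24 exhausted arrays below the mean of their group at rest. Within young rats (11.6% of all genes) 0 members passed, and Amy1 was nearest at -0.71 ± 0.26 (adjusted p = 0.0623). Within old rats (3.32%) 0 passed again, and Tekt1 was nearest at 0.37 ± 0.15 (adjusted p = 0.197). At an unadjusted p below 0.05, 1 member was found in each age, against 2482 of all genes in young and 1642 in old rats. Over both ages 7 of 13 liver transcripts were lower after the run, with a median of -0.69.

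Means over both lines hide groups that moved apart, which is described here without a test since arrays at rest chose the genes. Mtarc1 averaged 5.28 ± 0.59 in old exhausted HCR against 4.48 ± 0.51 in old HCR at rest, and 6.37 ± 0.32 in old exhausted LCR against 6.74 ± 0.23 in old LCR at rest. Tekt1 averaged 4.72 ± 0.38 in old exhausted LCR against 3.72 ± 0.72 in old LCR at rest, and 4.46 ± 0.42 in young exhausted LCR against 5.06 ± 0.33 in young LCR at rest. The old LCR rats at rest were thus the group of that line in which Tekt1 was lowest. Their 6 values ran from 2.85 to 4.68, reaching into the range of HCR.

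Old rats differed from young rats in 3 of the 9 genes, averaged over lines and states: Slc51a was higher, and Ranbp3l and Tekt1 were lower (limma, 24 against 24 arrays). The arrays at rest, which chose the genes, are part of this comparison, so its calls are not independent of the choice. At rest Slc51a differed between lines by -1.984 in old and -0.431 in young rats, and Tekt1 by -0.182 and -1.655. For both genes LCR at rest also held the widest gap between ages. Of all genes 22.5% passed in this comparison, 7.82% higher and 14.7% lower, so that a count of 3 of 9 is not far from the background. Here too the split followed the scaling: 747 genes were higher and 1407 lower, against 1214 and 1146 after quantile normalization and 1189 and 1062 after median centring. Slc51a ran from 3.86 to 7.67 in old arrays (median 5.10), against 3.47 to 6.45 in young arrays (median 4.05). Most old arrays, 21 of 24, exceeded the mean of the matching young group. The change was 1.07 ± 0.21 (2.09-fold, limma adjusted p = 0.000117). It stayed past the threshold with each array left out in turn, each time with arrays at rest in the fit. By group it was 2.07 in LCR at rest, against 0.52 in HCR at rest, 1.27 in exhausted HCR and 0.40 in exhausted LCR. In exhausted rats alone it did not pass (limma adjusted p = 0.0533).

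Ranbp3l ran from 4.42 to 7.40 in old arrays (median 5.50), against 5.25 to 7.501 in young arrays (median 6.54). The ranges overlapped, but 20 of 24 old arrays lay below the mean of the matching young group. Its change was -0.80 ± 0.16 (1.74-fold lower, adjusted p = 0.000173). Tekt1 changed by -0.31 ± 0.11 (adjusted p = 0.0334) with 13 of 24 old arrays below the matching young mean, and the call was lost without any 1 of 7 arrays (old LCR exhausted replicates 3 and 6, young HCR exhausted replicate 2, old LCR rest replicates 4 and 5, young LCR rest replicates 2 and 3; adjusted p up to 0.0559). Without a filter it missed the threshold (adjusted p = 0.0513). Its widest gap between ages was that of LCR at rest, at 3.72 in old against 5.06 in young rats (-1.34). The change was 0.13 in HCR at rest, -0.28 in exhausted HCR and 0.26 in exhausted LCR, so that the average hides unlike groups.

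**Figure D3:**
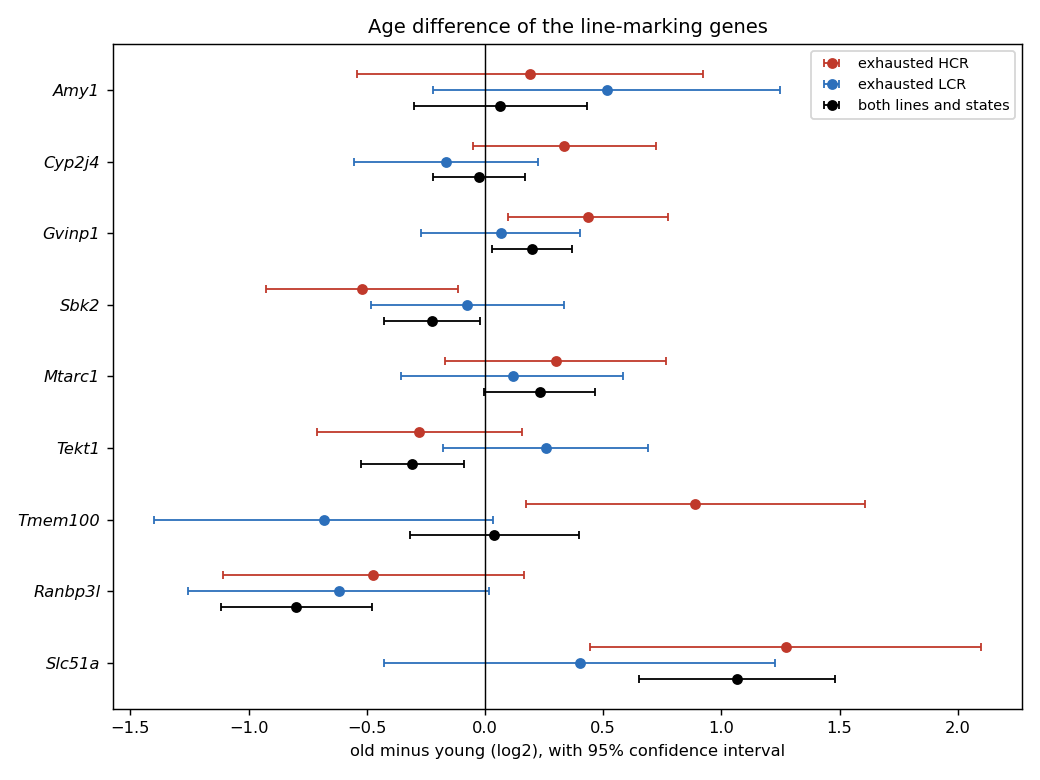
Old minus young difference of the 9 genes on the log2 scale (horizontal axis) with 95% confidence intervals, in exhausted HCR (red), in exhausted LCR (blue) and averaged over both lines and states (black). The average for Slc51a lies at 1.07 and that for Ranbp3l at -0.80, and Cyp2j4 and Tmem100 averages lie near 0.

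In exhausted rats alone 0 members passed between ages (limma, 10.7% of all genes), and 4 had an unadjusted p below 0.05. Slc51a was 0.84 ± 0.29 higher (adjusted p = 0.0533) and Ranbp3l was at -0.55 ± 0.22 (0.111). Tekt1, called over both states, was at -0.01 ± 0.15 here (adjusted p = 0.976). In exhausted HCR (2.63% of all genes) 0 of the 9 passed, with Slc51a at 1.27 ± 0.41 (limma adjusted p = 0.0826). There 4 members and 1533 of all genes had an unadjusted p below 0.05. In exhausted LCR (5.14%) 0 passed, and 0 members but 1649 of all genes had an unadjusted p below 0.05. Other tissues moved with age as well: 7 of 9 tendon and connective tissue genes were lower in old rats, with a median of -1.94, and 3 of 6 slow fibre markers were lower. The part of these shifts in the changes of Slc51a, Ranbp3l and Tekt1 was not tested. Among interferon-inducible genes 9 of 18 were higher with age and 1 was lower, while Gvinp1, the member of that kind, was at 0.20 ± 0.08 (adjusted p = 0.0806).

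Slc51a was highest in old LCR rats at rest, whose mean was 6.40 ± 1.08, while the other 7 groups lay between 3.90 and 5.18. Single rats of this group differed widely, with replicates 3 and 4 at 5.19 and 5.14 and replicates 1 and 5 at 7.45 and 7.67. A list of genes that are known to rise when muscle loses its nerve, or that belong to the neuromuscular junction, was set beside Slc51a. This list of 16, of which 9 were measured (Chrna1, Chrng, Chrne, Myog, Myod1, Gadd45a, Hdac4, Ampd3 and Myh3), was drawn up after the data had been seen, so no test is given. Its mean was 8.22 ± 0.78 in old LCR at rest and 6.77 to 7.32 in the other groups. Old LCR at rest had the highest group mean for 7 of the 9 genes. Myod1 and Myh3 did not share this: both were highest in young exhausted LCR, at 8.87 and 6.92, while old LCR at rest had 8.58 and 6.17. Over deviations from group means of the 48 arrays, Slc51a and this mean had r = 0.79 and rho = 0.622 (r = 0.698 without the 2 arrays farthest from the median).

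**Figure D4:**
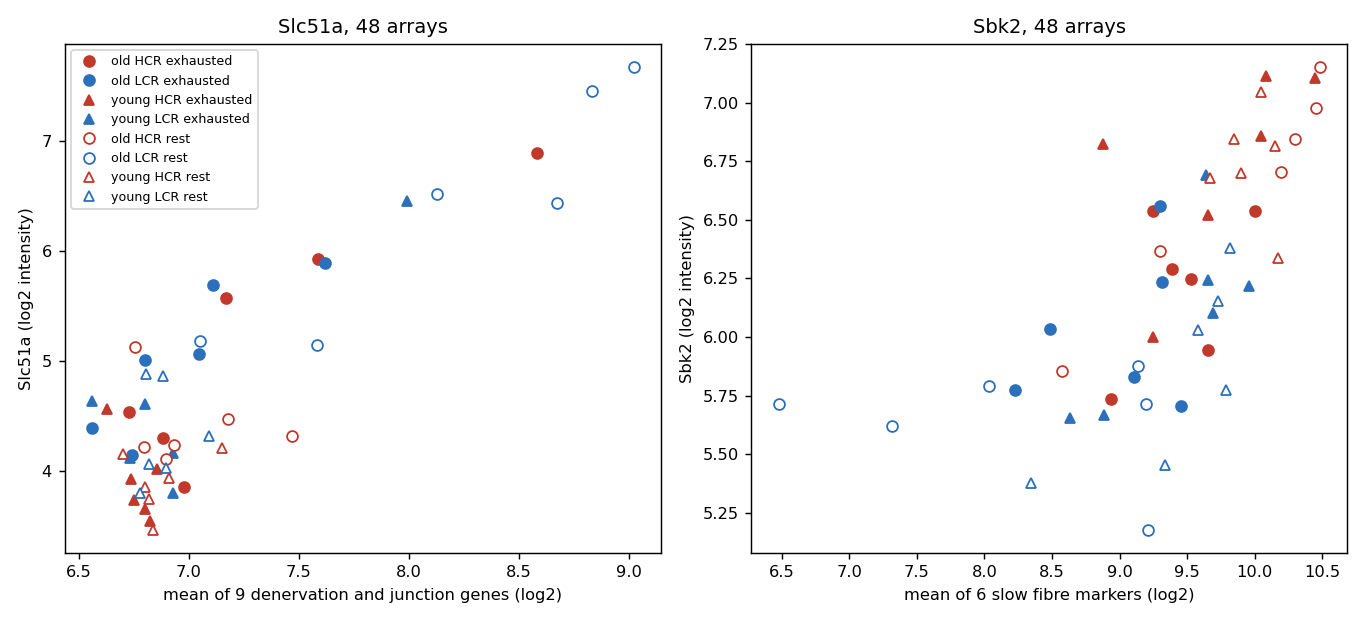
Left, Slc51a against the mean of 9 denervation and neuromuscular junction genes, and right, Sbk2 against the mean of 6 slow fibre markers, all in log2 intensity over the 48 arrays; red is HCR, blue is LCR, circles are old and triangles young, filled symbols exhausted and open symbols at rest. Slc51a is above 6.4 in 4 old LCR arrays at rest, 1 old HCR and 1 young LCR exhausted array, all with a list mean above 7.9.

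Among themselves the 9 genes varied mostly apart. Deviations from group means, which hold no line difference, were compared over the 48 arrays for 36 pairs, and 1 pair passed: Sbk2 and Ranbp3l had r = 0.399 (permutation p = 0.00134, adjusted 0.0482) and rho = 0.451 (permutation p = 0.0015, adjusted 0.054), and r = 0.377 without the 2 arrays farthest from the median. The other 35 pairs had r between -0.281 and 0.367. Against the means of the liver and endothelial lists, 0 of 18 relations passed, and 2 had an unadjusted permutation p below 0.05: Amy1 with the liver mean (r = 0.306, rho = 0.338, permutation p = 0.0222 for r and 0.0229 for rho, adjusted 0.2 and 0.15) and Slc51a with the endothelial mean (r = -0.427, rho = -0.407, permutation p = 0.0123 and 0.0134, adjusted 0.2 and 0.15).

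Genes most like each member were sought among the tested genes, with predicted genes and unnamed loci left out. Likeness was Pearson's r over the 48 arrays, which share lines, ages and states, and r of deviations from group means. Over all arrays Slc51a was most like Prrt4 (0.869), Copz2 (0.858) and Eda2r (0.854), and Sbk2 most like Atp1b1 (0.82), Ldhb (0.791) and Rilpl1 (0.753). Cyp2j4 was most like Acadsb (0.825), Ccdc91 (0.802) and Timm10 (0.754). Acadsb also led for Amy1 (0.752), and it was the gene most opposite to Mtarc1 (-0.848). Likeness between line-marked genes over all arrays follows in part from the lines themselves. Within groups the leading genes were Lgals1 for Slc51a (0.763), Myl10 for Sbk2 (0.714), Nrip1 for Tmem100 (0.697) and Slc38a3 for Ranbp3l (0.657). For Cyp2j4, Amy1, Mtarc1, Gvinp1 and Tekt1 none of the genes searched exceeded 0.59.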

How the data were processed

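The deposited values are log2 intensities, 1 per probe set and array. RMA and oligo are listed in the submitters' processing notes and Expression Console in the series' design text, and it is not stated which of them made the table. RMA removes background, aligns the arrays' distributions by quantiles and summarises probes, which hides any shift shared by most genes. Labelled cDNA came from 400 ng of total RNA, per the labels. Precision is limited by how many arrays there are and by signal over background.

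Of 36685 probe sets, the 14824 that name 1 gene were used, through GEO's platform annotation. Of these, 14670 matched current rat records by Entrez identifier, 89 by symbol, and 65 had no match. The brightest probe set stood for a gene, and each of the 9 members has 1. The sources used here do not name the build of the array's annotation, so no gene coordinates are given beyond the RefSeq promoter windows.

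A limma model (version 3.58.1, R 4.3.3) with a mean for each of 8 groups gave the comparisons, with moderation at its defaults, 40 residual degrees of freedom, two-sided tests and Benjamini-Hochberg adjustment over 9558 genes in each comparison, at a threshold of 0.05. The steps were tested on simulated data. Errors of changes are SE and those of group means SD. Relations used 100000 permutations of arrays within groups, in Python 3.11.15 with scipy 1.17.1. The labels give no batch, date or pairing. The members and gene lists were chosen with earlier results of these data known. Named genes are the 9 members, their close relatives, up to 3 genes per pathway list with the smallest p among those passed between lines in exhausted rats, the leading genes by likeness, and the first measured tissue markers; other names were chosen after their values were seen. Alternatives tried were 2 further scalings, other filters, fewer arrays in the fit, a robust trend, array weights, the liver mean as covariate, probe set means and arrays left out.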

Additional observations from a re-analysis of the deposited data

Results flagged for a closer look

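In 9 of 72 groups of 6 arrays, 1 array lay far from the rest by Dixon's criterion, which chance gives in about 1 of 20 groups. For Cyp2j4 these were the lowest arrays of old LCR exhausted (replicate 6, 4.65) and of young LCR at rest (replicate 2, 5.44). Gvinp1 had its highest young HCR exhausted array at 5.31 (replicate 6) and its lowest young LCR array at rest at 3.72 (replicate 6). Tekt1 had the highest young HCR exhausted array at 3.92 (replicate 2) and the lowest young LCR exhausted array at 3.66 (replicate 6). Sbk2 was lowest in old LCR rest replicate 6, at 5.18. Slc51a was highest in young LCR exhausted replicate 1, at 6.45, and in old HCR rest replicate 1, at 5.13.

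In some pairs of groups every exhausted array moved one way in one group and the opposite way in the other, relative to the mean at rest; none of these differences was tested. Mtarc1 moved by 0.80 in old HCR and by -0.38 in old LCR. Sbk2 moved the other way round, by -0.44 in old HCR and by 0.38 in old LCR. For Gvinp1 the shift was -0.81 in the young HCR rats, against 0.36 in the young LCR rats. Tekt1 moved by 1.001 in old LCR and by -0.60 in young LCR.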

How the results depend on the processing

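Among the results for single genes, 1049 kept their side of the threshold under settings that leave out no single array, 13 gained a call and 9 lost one. A change of sign was counted as a reversal only where a fit passed, and 0 such were found. Results that passed in neither fit could change sign and still count as kept. Slc51a between lines in old exhausted rats did so, at 0.15 in the main fit and -0.19 without the 3 arrays that stand apart. The call of Sbk2 between lines in exhausted rats was lost after quantile normalization (adjusted p = 0.0769), median centring (0.0696), without a filter (0.0688), with the compared groups alone (0.059) and without the array of 2 animals (0.0505). In young exhausted rats Sbk2 gained a call with a filter of 12 arrays (0.0496), a robust trend (0.0442) and array weights (0.0162). The liver covariate (0.045) and leaving out the 3 arrays that stand apart (0.0461) gave that call too. Gvinp1 passed between old and young after quantile normalization (0.0491) and centring (0.039). Tekt1's change with age missed the threshold after centring (0.0608) and without a filter (0.0513). With the compared groups alone, Amy1 in young exhausted rats (0.132) and Ranbp3l in old exhausted rats (0.0507) missed it. Under that setting Amy1 passed in old exhausted rats (0.0301), against 0.117 in the main fit. Slc51a passed between ages in exhausted rats after quantile normalization (0.0467), centring (0.0407) and array weights (0.0292), so that 1 member was called there. With the compared groups alone 1 member, Ranbp3l, passed after exercise in young rats, and with array weights 1 member, Tekt1, in old rats.

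Counts over all genes moved by over 1.5 times in some settings. For the line difference by age it was 1 after centring, against 0. For old against young in exhausted HCR it was 140 without a filter, 92 with the compared groups alone and 114 without the 3 arrays that stand apart, against 251. For the lines in old exhausted rats it was 231 with the compared groups alone, against 385, and in young exhausted rats 792 with array weights, against 485. For exercise in old rats it was 168 with the compared groups alone, 523 with weights and 487 without the 3 arrays, against 317. The cause was not tested.

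Each array was left out in turn in the filtered fit. Between lines in exhausted rats, Tekt1 left aside, Sbk2 alone changed its call over both ages, lost without any 1 of 19 arrays. In young rats Amy1 lost its call without any 1 of 3 arrays and Sbk2 gained one without any 1 of 9. In old rats no call changed. Members called between old and young, averaged over lines and states, were 2 to 4. In exhausted rats and in exhausted HCR they were 0 to 1. After exercise they were 0 to 0 overall and 0 to 1 in young and in old rats. Counts over all genes were 1017 to 1232 between lines in exhausted rats, 368 to 544 in young and 284 to 438 in old. They were 1394 to 1862 after exercise, 890 to 1226 in young and 237 to 539 in old rats. Between ages they were 1997 to 2251, 904 to 1164 in exhausted rats, 138 to 333 in exhausted HCR and 328 to 519 in exhausted LCR. The line difference by age gave 0 to 0 of the members and of all genes, as did members between ages in exhausted LCR. Of relations within groups, 105 were unmoved, 2 moved and 1, Sbk2 with Ranbp3l by rho, missed the threshold (adjusted 0.054). No paired analysis was possible because the labels give no replicate numbers and no pairing, and numbers here follow accession order. Levels below the median of all values, as for Tekt1 and Amy1 in their low line, limit how well folds are known.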
